A study of Mus musculus with 8 samples.

Results

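The genes described here are the nuclear genes for subunits of the mitochondrial respiratory chain and of ATP synthase, with their close assembly factors. They were taken by symbol: every gene whose name begins with Nduf, Sdh, Uqcr, Cox4, Cox5, Cox6, Cox7, Cox8 or Atp5, measured by a probe set with exactly 1 symbol, and represented by its probe set of highest mean log2 signal over the 8 arrays. This gave 87 of the 12393 genes on the array. By known role 33 belong to complex I, 4 to complex II, 8 to complex III, 16 to complex IV and 17 to complex V, while 9 are assembly or supercomplex factors. The filter on low signal (a signal of 121 or more on 2 or more arrays of any group) was passed by 85 members. The exceptions were Cox6b2, a testis isoform with signals of 56.4, 113, 55.1 and 45.8 in C57BL/6 and 103, 84.3, 124 and 29.2 in MRL/MpJ, and Cox7c, a small subunit of complex IV, whose brighter single-symbol probe set read between 4.6 and 94.2.

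Total RNA came from the left ventricle of male mice, 2 to 4 months old, of the reference strain C57BL/6 and of MRL/MpJ, a strain studied for its healing of ear punches. Hearts were untreated, or were taken 3, 30 or 60 days after the left anterior descending artery had been tied off, which infarcts the ventricle. The controls were untreated and not sham-operated. There was 1 array for each of the 8 groups, and whether it held RNA of 1 mouse or of a pool is not stated, so the spread within a group was not measured. All comparisons with untreated hearts share the same 2 untreated arrays. Signals are given in the order untreated, day 3, day 30 and day 60, in arbitrary array units. Changes are differences of log2(signal + 28.6), the offset being the 20th percentile of all values, and they understate changes of dim genes.

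The respiratory chain carries electrons from NADH (complex I) or succinate (complex II) through ubiquinone to complex III, then by cytochrome c to complex IV, where oxygen is reduced. Complexes I, III and IV pump protons across the inner membrane, and ATP synthase, complex V, uses their return to make ATP. Heart muscle cells are packed with mitochondria and make most of their ATP this way. Several subunits of complex IV have a form made in heart and skeletal muscle and another made in most tissues. The subunits encoded by mitochondrial DNA are not among the probe sets analysed here.

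RefSeq promoter windows (build GRCm38.p6, 250 bases before to 50 after the start of transcription) were matched for 73 of the 87 members, as 78 windows. The windows were searched on both strands for letters bound by factors known to drive these genes. The NRF1 letters GCGCATGC were found in 14.1% of member windows and in 2.71% of all 32851 windows, the YY1 letters AANATGGCG in 12.8% and 2.38%, the ERR letters TCAAGGTCA in 2.56% and 0.423%, the ETS (GABP) letters CCGGAAGT in 6.41% and 3.89%, the CREB letters TGACGTCA in 3.85% and 1.79%, and the SP1 letters GGGGCGGGG in 15.4% and 11.4%. Member windows were also richer in G and C, with a median of 58.8% against 52.7%. The NRF1 letters were in windows of all 5 complexes, with examples in Ndufa6 and Ndufa8, Sdhb, Uqcr11 and Uqcrc1, Cox6a1, and Atp5g2, Atp5k and Atp5l. The YY1 letters were in 6 windows of complex I (Ndufa7, Ndufa9, Ndufb11, Ndufc1, Ndufs4 and Ndufs7), in 3 of complex V and in that of Sdhaf2. A match describes the letters of the window and is no measurement of binding.

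The windows of 6 genes that carry the results below are shown from 200 bases before to 10 after the start, 5′ to 3′ on the gene's strand, with matches in capitals. Ndufa7 lies at chr17:33824445-33824654 on the plus strand, Ndufa12 at chr10:94198835-94199044 on the plus strand, Uqcr11 at chr10:80406812-80407021 on the minus strand, Cox6a1 at chr5:115348949-115349158 on the minus strand, Atp5g3 at chr2:73911317-73911526 on the minus strand and Ndufaf4 at chr4:24897883-24898092 on the plus strand. Capitals mark YY1 letters in Ndufa7, NRF1 letters in Cox6a1 and Ndufaf4, ETS and then NRF1 letters in Uqcr11, and ERR letters in Atp5g3. The NRF1 match of Uqcr11 and the ERR match of Atp5g3 lie on the other strand. Ndufa12, the member that differed between the strains, holds none of the 6 motifs. Where a gene had several windows, one with a match was preferred.
Ndufa7: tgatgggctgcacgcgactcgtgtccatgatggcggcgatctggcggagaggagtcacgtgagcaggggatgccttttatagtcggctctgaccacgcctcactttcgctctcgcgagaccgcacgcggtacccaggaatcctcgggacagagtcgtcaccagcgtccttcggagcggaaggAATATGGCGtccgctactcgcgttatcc
Ndufa12: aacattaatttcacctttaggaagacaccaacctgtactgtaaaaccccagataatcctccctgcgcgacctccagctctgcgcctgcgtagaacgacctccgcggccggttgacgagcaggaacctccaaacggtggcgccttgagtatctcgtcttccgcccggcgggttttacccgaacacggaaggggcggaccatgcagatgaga
Uqcr11: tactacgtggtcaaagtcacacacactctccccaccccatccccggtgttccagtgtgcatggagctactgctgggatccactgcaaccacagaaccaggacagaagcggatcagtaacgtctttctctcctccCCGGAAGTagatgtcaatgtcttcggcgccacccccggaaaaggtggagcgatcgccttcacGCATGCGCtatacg
Cox6a1: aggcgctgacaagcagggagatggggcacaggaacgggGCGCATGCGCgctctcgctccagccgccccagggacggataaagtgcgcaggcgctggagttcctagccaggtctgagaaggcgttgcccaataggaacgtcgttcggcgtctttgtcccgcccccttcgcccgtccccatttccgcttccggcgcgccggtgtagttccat
Atp5g3: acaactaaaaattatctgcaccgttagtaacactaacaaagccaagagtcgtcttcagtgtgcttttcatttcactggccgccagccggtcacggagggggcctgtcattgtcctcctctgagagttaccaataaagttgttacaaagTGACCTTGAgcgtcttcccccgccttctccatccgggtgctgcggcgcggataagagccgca
Ndufaf4: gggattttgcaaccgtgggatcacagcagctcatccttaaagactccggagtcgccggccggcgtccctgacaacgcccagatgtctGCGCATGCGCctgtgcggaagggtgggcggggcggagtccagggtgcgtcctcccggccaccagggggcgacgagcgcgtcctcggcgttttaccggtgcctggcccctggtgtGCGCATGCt
Medians of the log2 change after ligation are given by motif as a description. The 11 tested members with NRF1 letters had a median of -0.29 against -0.26 in the 60 without, and the 10 with YY1 letters a median of -0.28 against -0.26 in 61. The 11 with SP1 letters had -0.28 against -0.26. The few members with other letters spread more widely, with medians of -0.41 for CREB (3 members), -0.19 for ETS (5) and -0.03 for ERR (2).

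Complexes I, II, III and V had lower signals on average in ligated than in untreated hearts, with their lowest medians on the MRL/MpJ day 3 and day 60 arrays, and complex IV had no settled direction. Complex V medians at days 3, 30 and 60 were 0.01, -0.06 and 0.10 in C57BL/6 and -0.41, -0.22 and -0.50 in MRL/MpJ. Those of complex II were -0.015, -0.24 and -0.03 in C57BL/6 and -0.47, -0.25 and -0.46 in MRL/MpJ. The low MRL/MpJ medians moved with the processing. Cyclic loess normalization, chosen after seeing the data, gave complex V -0.18 and -0.28 in MRL/MpJ at days 3 and 60. For complex II at MRL/MpJ day 3 it gave -0.23, and the mean over all probe sets gave -0.75. The sign of the complex V median depended on the untreated MRL/MpJ array, as given below. Over the mean of the 3 days, with strain in the model, the median log2 difference between ligated and untreated arrays was -0.32 for complex I, -0.18 for complex II, -0.34 for complex III, 0.02 for complex IV and -0.17 for complex V. All 33 complex I genes, all 4 of complex II, 7 of 8 of complex III and 15 of 17 of complex V lay below 0, against 4 of the 14 tested genes of complex IV. Over all members 70 of 85 lay below 0 with a median of -0.26, beside 53.2% of all 8195 genes with a median of -0.03. The sign of the complex IV median changed with quantile normalization (-0.0012), with the mean over all probe sets (-0.0063) as well as without the C57BL/6 untreated (-0.1286) or day 60 (-0.0165) array, and no direction is read from it. Leaving out the untreated MRL/MpJ array brought the median to -0.0703 over the members, -0.20 for complex I, -0.0931 for complex II, -0.0446 for complex III and 0.0462 for complex V. Leaving out the untreated C57BL/6 array brought it to -0.43 over the members, -0.47 for complex I, -0.36 for complex II, -0.50 for complex III and -0.37 for complex V. The mean over all probe sets gave -0.35 for complex II.

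No single member passed the test across all genes in this comparison. The error of the test comes from the strain-by-time differences, so a response that differs between the strains counts as error. In the additive limma model (strain and time point, 3 residual degrees of freedom, adjustment over 8195 genes), 0 of 85 members were called at an adjusted p under 0.05, beside 0.195% of all genes. At an unadjusted p under 0.05 there were 3 members, all lower (Ndufaf4, Ndufs7 and Ndufa10), beside 10.4% of all genes. For day 3 against untreated 0 members were called (all genes 0%), with 3 members at the unadjusted limit beside 6.53% of genes. For day 30 the counts were 0 members (all genes 0.0122%) and 1 member beside 11%. At day 60 they were 0 members (all genes 0.0366%) and 4 members beside 10.6%. The shares of members past the unadjusted limit were under the background on every day. The medians over all members were -0.29 at day 3, -0.19 at day 30 and -0.25 at day 60. Each moved with single arrays: leaving out the MRL/MpJ array of the day gave -0.11 at day 3, -0.34 at day 30 and -0.0709 at day 60, and leaving out the C57BL/6 array of the day gave -0.46, -0.0124 and -0.43. Without the untreated MRL/MpJ array the medians were -0.11, -0.0366 and -0.0927, and without the untreated C57BL/6 array -0.45, -0.35 and -0.42.

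The direction without overlap gave another count. For 17 members every ligated array lay below both untreated arrays, 20% of the 85, where 7.11% of all genes did so. No member had every ligated array above both untreated arrays, where 6.71% of all genes did. Complex I held 8 of the 17 (Ndufs7, Ndufs8, Ndufa7, Ndufb3, Ndufb5, Ndufb6, Ndufb9 and Ndufc1), complex III 4 (Uqcrfs1, Uqcrc1, Uqcrq and Uqcr11), complex V 2 (Atp5d and Atp5o), complex IV 1 (Cox5a) and the assembly factors 2 (Ndufaf3 and Ndufaf4). Ndufb6 cleared narrowly, with 2743 on the highest ligated array against 2748 on the lower untreated array. These counts use the brightest probe set of each gene. Another probe set overlapped for several, such as Ndufs7, Ndufs8, Ndufb6, Ndufc1, Cox5a and Atp5d, while those of Ndufb5 and Ndufaf4 did not. Without the untreated C57BL/6 array the count was 42 of 85, where 15.8% of all genes did so, and without the untreated MRL/MpJ array it was 20, where 16.5% did so.

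Each ligated array was also set against the untreated array of its own strain. In MRL/MpJ the median over all members was -0.51 at day 3, -0.19 at day 30 and -0.47 at day 60, and in C57BL/6 it was -0.01, -0.20 and 0.02. Medians over all genes lay between -0.07 and 0.06. The 1.5-fold limit, 1 array against 1 and so without a test, was passed downward by 35 of 85 members in MRL/MpJ at day 3 (10.9% of all genes) and by 29 at day 60 (13%), but by 4 at day 30 (10.3%). In C57BL/6 it was passed by 2 at day 3 (5.72%), 10 at day 30 (16.9%) and 4 at day 60 (10.5%). The high counts were thus those of 2 MRL/MpJ arrays, and elsewhere the members' share was under the background. The MRL/MpJ changes all rest on 1 untreated array, in which the members' median stood 0.18 above the untreated C57BL/6 array, with 23 of 85 members below it. Between arrays of the same day the MRL/MpJ members' median was 0.33 lower at day 3, 0.24 higher at day 30 and 0.32 lower at day 60.

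**Figure D1:**
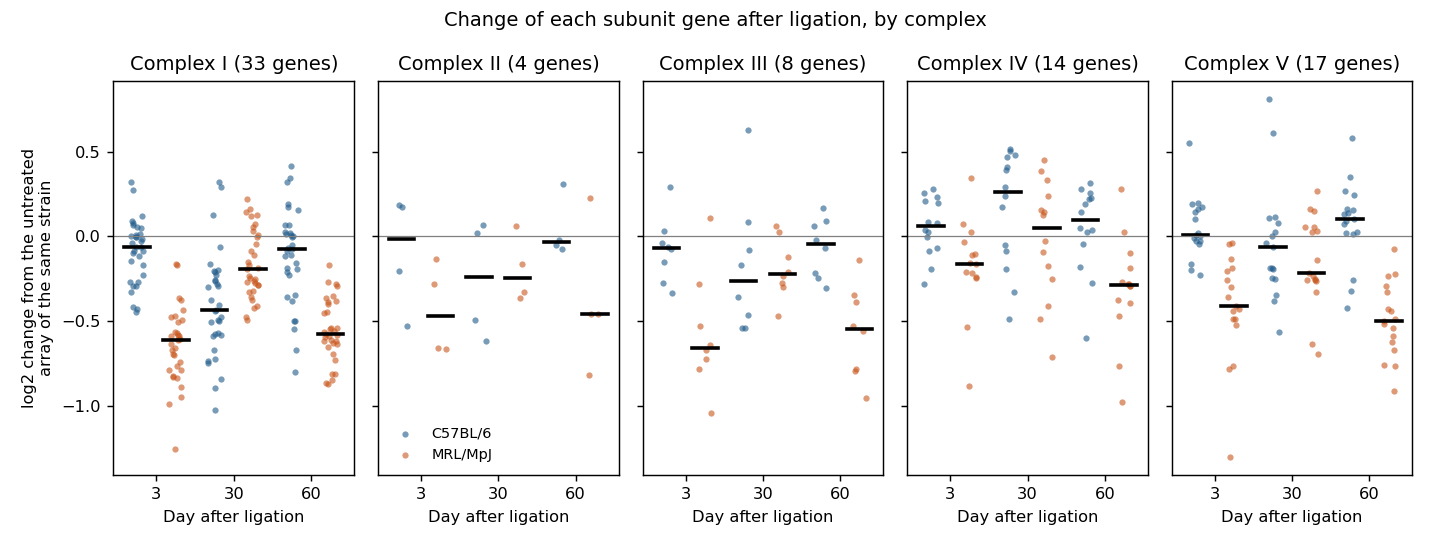
Change of each tested subunit gene (points) from the untreated array of the same strain, in log2 units, for complexes I to V at days 3, 30 and 60. Each point is 1 gene on 1 array and black bars are medians over the genes of a complex. Complex I medians were -0.61 and -0.58 in MRL/MpJ at days 3 and 60, while complex IV medians lay between -0.29 and 0.27.

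Complex I takes electrons from NADH. In MRL/MpJ all 33 of its genes were below the untreated array at day 3 (median -0.61, or 0.653 times) and at day 60 (-0.58, or 0.669 times), and 24 were at day 30 (-0.19). In C57BL/6 the median was -0.06 at day 3, -0.44 at day 30, with 30 of 33 below, and -0.07 at day 60. Cyclic loess normalization, chosen after the data were seen, kept all 6 medians below 0 and gave -0.39 for MRL/MpJ at day 3 and -0.28 for C57BL/6 at day 30.

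The largest mean difference in complex I was that of Ndufs1, which carries iron-sulphur clusters of the electron path. Its signals were 4352, 4645, 2119.8 and 3395 in C57BL/6 and 4544, 1884, 3490.5 and 2513 in MRL/MpJ. The low arrays were MRL/MpJ day 3 and C57BL/6 day 30, the C57BL/6 day 3 array was the highest of all, and the groups overlap. The log2 difference was -0.63 (SE 0.35, adjusted p = 0.58).

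Ndufs7, which holds the last iron-sulphur cluster before ubiquinone, had signals of 7220.4, 5355, 4529.9 and 5093 in C57BL/6 and 6698, 3932, 5691 and 3641 in MRL/MpJ. All 6 ligated arrays were below both untreated ones, with a difference of -0.58 (SE 0.23, adjusted p = 0.435). Its dimmer probe set overlapped, with 3601.5 in C57BL/6 at day 60 against 3284.4 and 3553.4 untreated, and a difference of -0.24. Ndufv1, the subunit that binds NADH, showed 5694, 5259.7, 3385 and 4851 in C57BL/6 and 5076, 3638, 5275 and 3888 in MRL/MpJ. Its MRL/MpJ day 30 array exceeded the untreated MRL/MpJ array, and its difference was -0.32 (SE 0.26, adjusted p = 0.706). Among the accessory subunits Ndufa7 had signals of 4282, 3494, 2872 and 3278 in C57BL/6 and 4358, 3133, 3464 and 2936 in MRL/MpJ, in which the highest ligated array (3494) was below the lower untreated array (4282). The other complex I genes ranged from -0.02 (Ndufb8) to -0.53 (Ndufb5, chosen after its values were seen).

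Complex II links the citric acid cycle to the chain. Sdha, the flavoprotein that oxidises succinate, had signals of 7222, 6277, 4698 and 6852 in C57BL/6 and 6143, 3870.3, 4770.1 and 4467 in MRL/MpJ. Each ligated array was below the untreated array of its strain, although the C57BL/6 day 3 and day 60 arrays remained above the untreated MRL/MpJ array, and the difference was -0.40 (SE 0.22, adjusted p = 0.572). Sdhc, a membrane anchor, showed 1502, 1711, 1523 and 1450.2 in C57BL/6 and 2612, 2384, 2075 and 1467 in MRL/MpJ. The groups overlap, and the difference after ligation was -0.19 (SE 0.21, adjusted p = 0.804), which turned to 0.0518 without the untreated MRL/MpJ array. The other Sdhc probe set, of like mean signal (1866 against 1840), gave -0.64.

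Complex III passes electrons from ubiquinol to cytochrome c. Uqcrfs1, the Rieske iron-sulphur protein, had signals of 8656, 6849.8, 6761 and 7298 in C57BL/6 and 8418, 5391, 7141 and 5828 in MRL/MpJ. Every ligated array was below both untreated arrays, and the difference was -0.39 (SE 0.20, adjusted p = 0.539). Uqcr11, a small accessory subunit whose promoter holds ETS and NRF1 letters, showed 7994, 6595, 5488 and 6469.5 in C57BL/6 and 8376, 4846, 6914 and 5671 in MRL/MpJ. It too had no overlap, with a difference of -0.46 (SE 0.22, adjusted p = 0.516). Uqcrq differed by -0.45 (SE 0.23, adjusted p = 0.552) on its brightest probe set, but the mean over its 4 probe sets gave 0.1023. The other probe sets were dim, with mean signals of 202, 170 and 111 against 4741 for the brightest. Uqcrb, a small subunit, was the exception of the complex: its signals were 18050.4, 17259, 27899 and 18876 in C57BL/6 and 19012, 20553, 19351 and 17279 in MRL/MpJ, highest in the C57BL/6 day 30 array. Its difference was 0.10 (SE 0.22, adjusted p = 0.898), against -0.2664 with the mean over its 2 probe sets.

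Complex V joins a catalytic head to a ring in the membrane. Atp5b, the catalytic beta subunit, had signals of 12289, 11929.9, 11748 and 13767 in C57BL/6 and 12266, 11194, 12499 and 10493 in MRL/MpJ, and Atp5a1, its alpha partner, had 19992, 19622, 17528 and 21326 and 16968, 14898, 17664 and 16109. Ligated and untreated arrays overlapped in both genes, and the differences were -0.05 (SE 0.20, adjusted p = 0.952) for Atp5b and -0.05 (SE 0.19, adjusted p = 0.941) for Atp5a1. Atp5o, part of the stalk that holds the head in place, showed 10612, 9049, 8149 and 8878 in C57BL/6 and 10523, 7799.5, 8831 and 6991 in MRL/MpJ without overlap, with a difference of -0.36 (SE 0.20, adjusted p = 0.572). The largest of the complex was that of Atp5mpl, a small membrane subunit, at -0.38 (SE 0.20, adjusted p = 0.569), with signals of 4434, 4414, 4308 and 3294 in C57BL/6 and 6815, 5704, 4383 and 3602 in MRL/MpJ that overlap.

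At the other end of complex V stood Atp5h, a subunit of the peripheral stalk, at 0.22 (SE 0.22, adjusted p = 0.765), whose signals were 7583, 11120.3, 13349 and 9695 in C57BL/6 and 12391, 12018, 13867 and 8834 in MRL/MpJ. The untreated C57BL/6 array was the lowest of the 8, and without it the difference was -0.12. The 3 genes for subunit c, which make the same mature ring protein, differed by -0.22 (Atp5g1), -0.17 (Atp5g2) and 0.12 (Atp5g3, 24233 in the C57BL/6 day 30 array against at most 18984 elsewhere). None of the 3 passed the test.

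The assembly factors had the member with the smallest p of this comparison. Ndufaf4, which helps to build the early complex I arm, had signals of 914, 479.7, 416 and 482 in C57BL/6 and 747, 526, 542 and 399 in MRL/MpJ. All 6 ligated arrays were below both untreated arrays, and the difference was -0.77 (SE 0.21, adjusted p = 0.261). Its partner Ndufaf3 showed 766, 594, 524 and 615 in C57BL/6 and 789, 501, 762 and 461 in MRL/MpJ, with a difference of -0.43 (SE 0.23, adjusted p = 0.566). Of the complex II factors, Sdhaf1 differed by 0.14 (SE 0.23, adjusted p = 0.872) and Sdhaf2 by 0.14 (SE 0.20, adjusted p = 0.843). Both turned below 0 without the untreated C57BL/6 array. A dimmer Sdhaf2 probe set gave -0.33, and Sdhaf4, another complex II factor, differed by -0.20. Cox7a2l, which joins complexes into supercomplexes, differed by -0.07, or 0.0199 with cyclic loess.

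**Figure D2:**
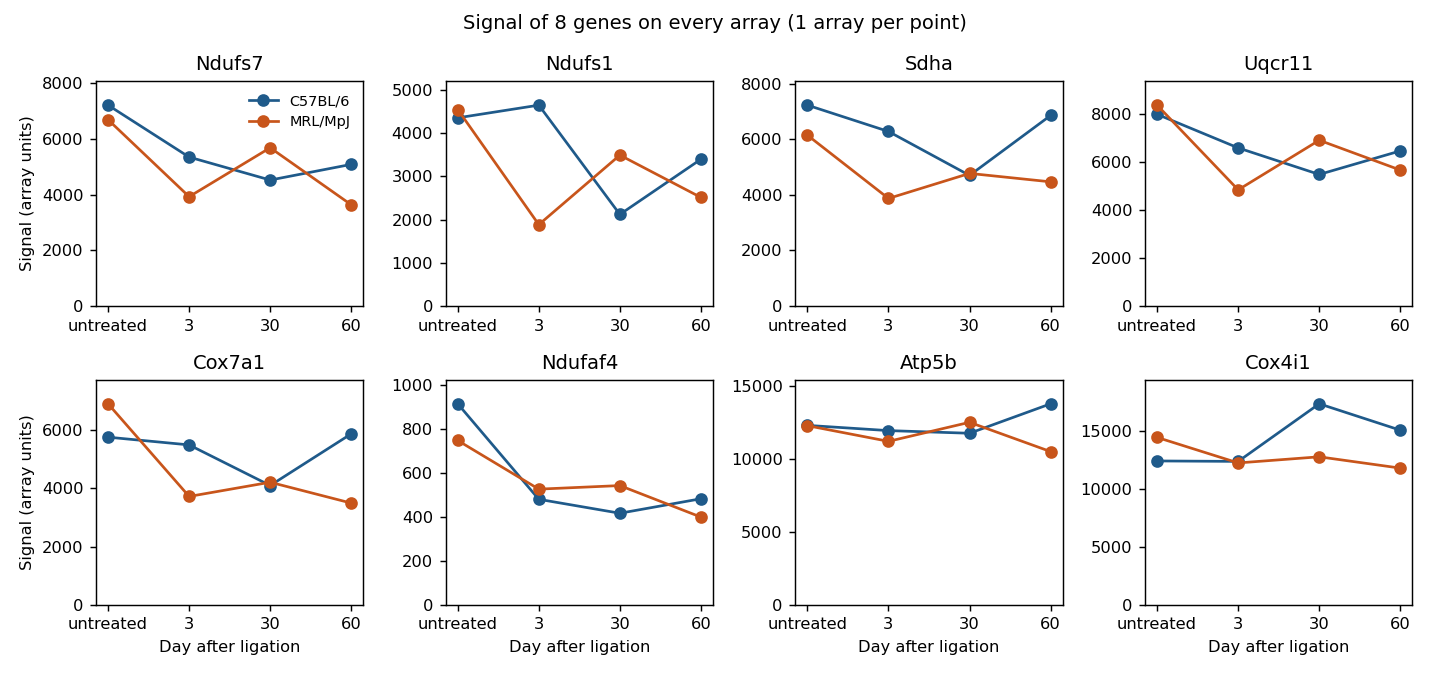
Signal in array units of 8 genes on every array, by time point and strain, with axes from 0. Lines join different hearts of a strain. On the brightest probe set shown here, Ndufs7, Uqcr11 and Ndufaf4 had every ligated array below both untreated arrays, while Atp5b and Cox4i1 overlapped.

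Complex IV, cytochrome c oxidase, was measured in muscle and common isoforms. Cox7a1, the muscle form of subunit 7a, had signals of 5764, 5498, 4102 and 5879 in C57BL/6 and 6912, 3726, 4214 and 3497 in MRL/MpJ. All ligated MRL/MpJ arrays were well below their untreated array, whereas in C57BL/6 the day 30 array was low and the others were near untreated, and the difference was -0.52 (SE 0.25, adjusted p = 0.529). Cox7a2, the form of most tissues, showed 12121, 12820.4, 13668 and 13825 in C57BL/6 and 13642, 12674, 13377 and 12005 in MRL/MpJ, with overlap and a difference of 0.02 (SE 0.19, adjusted p = 0.981). The muscle form Cox8b had signals of 8842, 8343, 8343 and 8576 in C57BL/6 and 11249, 7762, 9456 and 6602 in MRL/MpJ and a difference of -0.29 (SE 0.21, adjusted p = 0.675), and its common counterpart Cox8a had 2098, 2137, 2575 and 2464 and 2544, 2141, 3211 and 3097 and a difference of 0.15 (SE 0.19, adjusted p = 0.821). Without the untreated MRL/MpJ array the difference was -0.18 for Cox7a1 and -0.0703 for Cox8b, and without the untreated C57BL/6 array it was -0.86 and -0.52.

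Array by array, the change of Cox7a1 was below that of Cox7a2 in 6 of 6 ligated arrays, by 0.15 to 0.79 and by a mean of -0.54 in log2 units. Cox8b was below Cox8a in 6 of 6, by a mean of -0.45, and Cox6a2 below Cox6a1 in 5 of 6, by a mean of -0.13. These differences of changes were chosen with the values of the genes known, share the untreated arrays and were not tested. Subunit 4, the regulatory subunit of the complex, was measured by Cox4i1 with signals of 12390.4, 12351, 17314 and 15040.3 in C57BL/6 and 14418, 12219.6, 12747 and 11773 in MRL/MpJ, a difference of 0.01 (SE 0.21, adjusted p = 0.992). Its second isoform Cox4i2 was dim, between 138 and 338, and differed by -0.22 (SE 0.25, adjusted p = 0.802). Cox6b1 differed by 0.11, or -0.0208 with the mean over its probe sets.

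**Figure D3:**
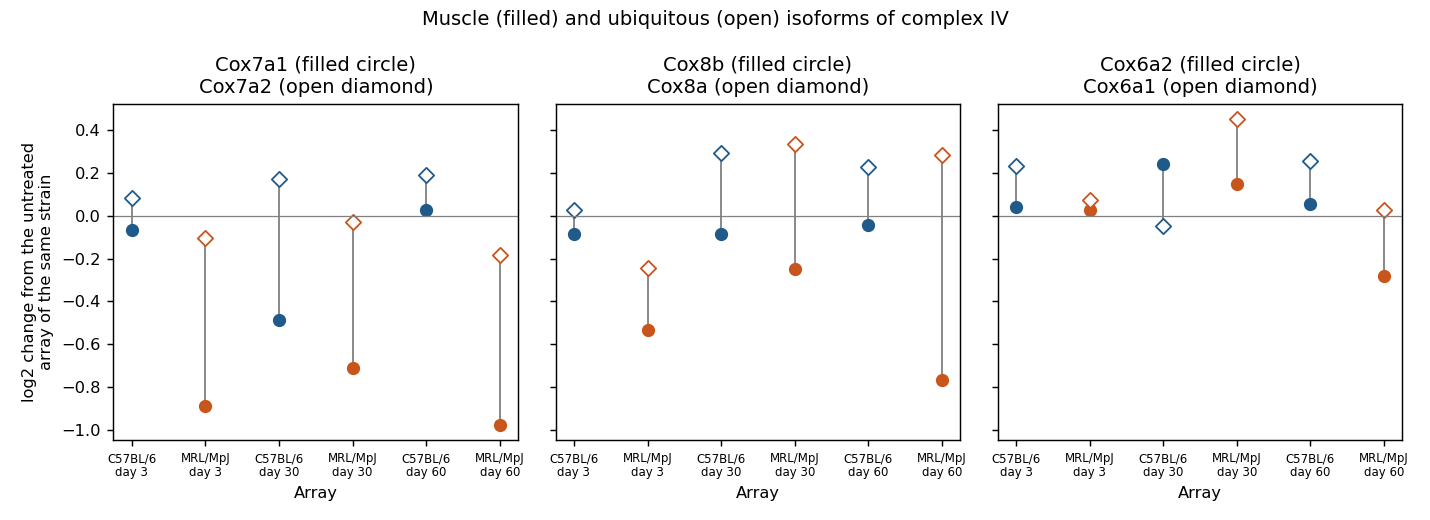
Change of the muscle isoform (filled circles) and of the isoform of most tissues (open diamonds) of 3 complex IV subunits from the untreated array of the same strain, in log2 units, on each ligated array. Grey lines join the isoforms of a pair. Filled circles lie below open diamonds in 6 of 6 arrays for Cox7a1 and Cox8b and in 5 of 6 for Cox6a2.

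Between the strains 1 member passed the test. Ndufa12, an accessory subunit of the complex I arm that faces the matrix, had signals of 7853, 7383, 6559 and 8236 in C57BL/6 and 2891, 2573, 2879.5 and 2351 in MRL/MpJ. Every MRL/MpJ array was below every C57BL/6 array, untreated or ligated, and the log2 difference was -1.48 (SE 0.18, adjusted p = 0.0279), lower in MRL/MpJ in 4 of 4 pairs. Among members 1 of 85 was called, beside 0.22% of all genes, and 4 of 85 passed the unadjusted limit beside 7.96%. The probe sets of the gene did not give 1 answer. A second probe set gave 6135, 6018, 5748 and 7072 in C57BL/6 and 3547, 2472, 3004 and 2629 in MRL/MpJ, again lower in MRL/MpJ without overlap, with a difference of -1.10. The third gave 2909.5, 2308, 2839.7 and 3331 in C57BL/6 and 3129.5, 3111, 3883 and 2331 in MRL/MpJ, with overlap and a difference of 0.12. The remaining probe set read 7.9 to 54.9, under the filter signal on every array, with a difference of 0.20. With the mean over all of these probe sets, the dim one included, the difference was -0.57 (adjusted p = 0.357). The call was also lost without either of the day 3, day 60 or untreated arrays of either strain (adjusted p between 0.137 and 0.224), without the filter (0.0759) and with the offset at the 5th percentile (0.0511), at differences between -1.50 and -1.37.

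Ndufa13, a complex I subunit also known as GRIM-19, showed 6473, 5854, 4638 and 6580.2 in C57BL/6 and 4077, 2345, 3065 and 2655 in MRL/MpJ on its only single-symbol probe set. MRL/MpJ was lower without overlap, with a difference of -0.97 (SE 0.20, adjusted p = 0.178), and the gene was called only when the model let the variance depend on intensity, which called 2 members. Ndufa10 differed by -0.61 (SE 0.18, adjusted p = 0.403) with overlap. Higher in MRL/MpJ were Cox6a1, with signals of 2582, 3038, 2494 and 3086 in C57BL/6 and 3563, 3754, 4881 and 3629 in MRL/MpJ and a difference of 0.49 (SE 0.19, adjusted p = 0.556), and Sdhc at 0.43 (SE 0.19, adjusted p = 0.623). All MRL/MpJ arrays lay below all C57BL/6 arrays for 3 members (Ndufa12, Ndufa13 and Cox6a2; 2.37% of all genes) and above them for 1 (Cox6a1; 1.82%), and the second Cox6a1 probe set overlapped. The median strain differences of complexes I to V lay between -0.07 and -0.02.

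**Figure D4:**
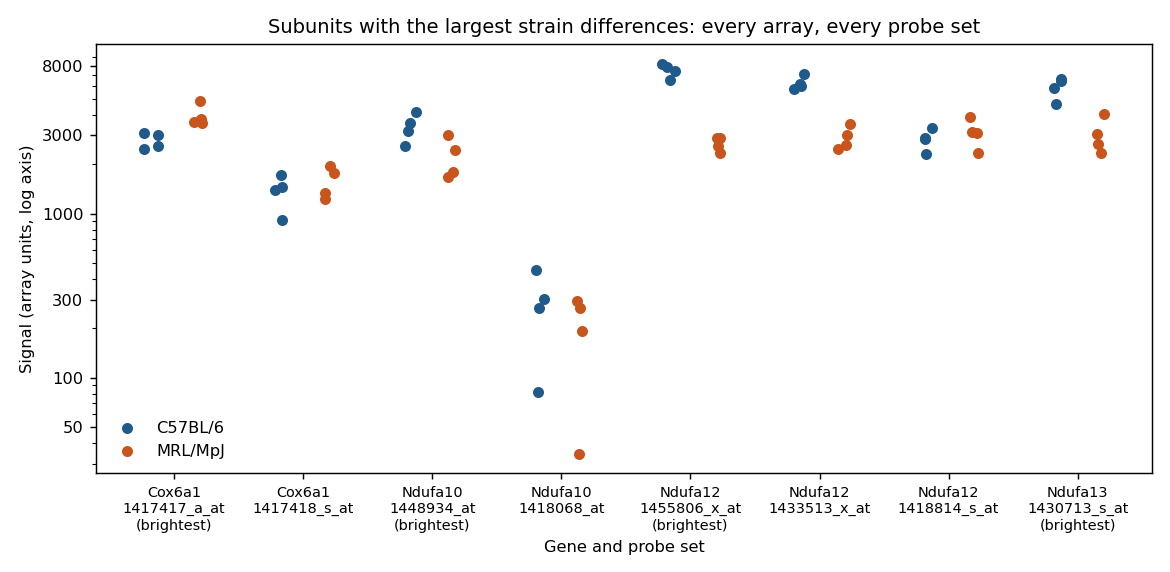
Signal on a log axis of each single-symbol probe set, above the filter, of 4 of the 5 members with the largest strain differences, with 1 point per array and 4 arrays per strain. The strains do not overlap on the brightest probe set of Ndufa12, on a second Ndufa12 probe set, on Ndufa13 and on the brightest of Cox6a1, and they overlap on the others.

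For each day the strain difference was compared with that of the other time points. The test used a term for the MRL/MpJ array of that day. For day 3 no member and no gene was called (0%), with 1 member (Ndufs1, -1.40, adjusted p = 0.931) at the unadjusted limit beside 5.09% of genes. For day 30 none was called (0%), with 7 members beside 19.8% (adjusted p between 0.173 and 0.25). The MRL/MpJ minus C57BL/6 difference at day 30 was above that of the other time points for Ndufv1, Ndufa5, Ndufa6, Ndufb3 and Uqcrc2. It was below for Cox4i2 and Cox8c. The term does not tell which array of the pair departed, and the C57BL/6 day 30 array had the lowest correlations with the other arrays. At day 60 none was called (0%), and 0 members passed the unadjusted limit beside 1.33%. No member passed this test on the days of low MRL/MpJ medians. For day 3 the other time points include day 60, and for day 60 they include day 3. The term is therefore no test of the change from untreated alone.

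The change differed between classes of brightness, without a steady gradient. Among members with a mean log2 signal of 13 or more (23 genes) the median change was -0.05 with 13 below 0, and among those between 11 and 13 (48 genes) it was -0.32 with 46 below 0. Other genes of the same brightness had medians of 0.05 (51 genes) and -0.13 (255 genes, of which 155 were below 0). Among the 14 members with a mean log2 signal under 11 the median was -0.24 with 11 below 0, beside -0.02 in 7804 other genes. Of the tested complex IV genes 9 of 14 were in the bright class, as were 9 of 17 of complex V, against 3 of 33 of complex I and 1 of 8 of complex III. Within the class between 11 and 13 the medians were -0.32 for complex I (29 genes), -0.35 for complex III (7 genes), -0.26 for complex V (7 genes) and 0.15 for complex IV (3 genes: Cox6a1, Cox8a and Cox7a1). In the bright class they were -0.30 for complex I (3 genes), -0.05 for complex V (9 genes) and 0.02 for complex IV (9 genes). The C57BL/6 day 30 array stood apart in this respect: its other bright genes were at 0.29 and its other genes of the middle class at -0.24. Its correlation with the other arrays was 0.844 to 0.877, against 0.884 to 0.948 among the rest. The part of brightness in the contrast between complexes was not tested.

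**Figure D5:**
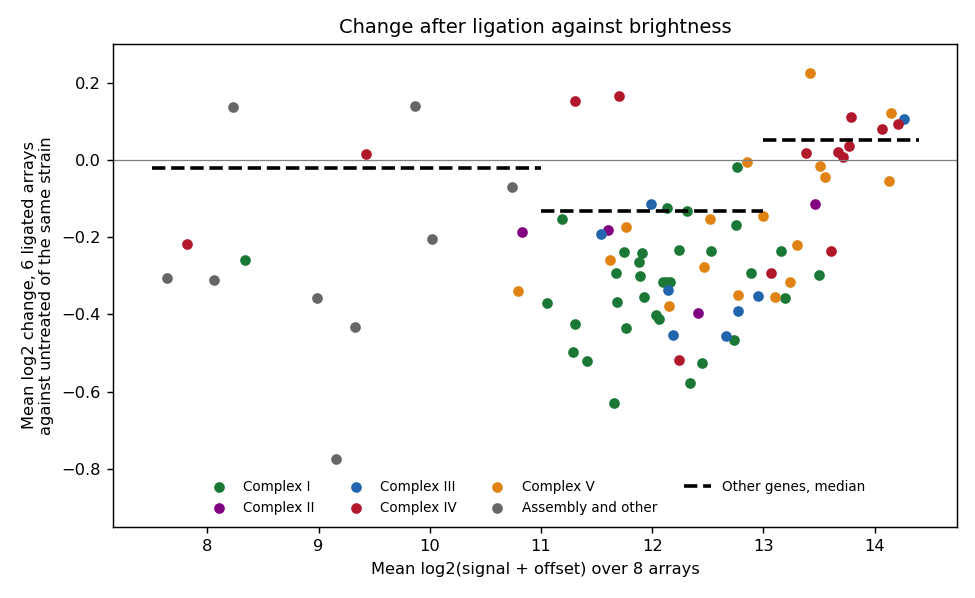
Mean change of each tested member over the 6 ligated arrays, in log2 units, against its mean log2(signal + offset) over all 8 arrays, coloured by complex. Dashed lines are medians of the other genes in 3 brightness classes, -0.02, -0.13 and 0.05 from dim to bright.

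Other probe sets of the members gave like values. A further 67 probe sets of 44 genes passed the filter, with a median difference of -0.23 against -0.24 for the brightest probe sets of the same genes. Of the 54 whose gene's brightest probe set was below 0, 43 were below 0 as well.

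Genes of other mitochondrial lists also lay mostly below 0 after ligation, with no gene called. Of 12 measured genes for electron carriers and ubiquinone synthesis, 12 were below 0 after ligation (median -0.52), 0 were called and 3 passed the unadjusted limit. They include Coq10a, which binds ubiquinone, with signals of 1877, 981, 338 and 852 in C57BL/6 and 1439, 762, 614 and 591 in MRL/MpJ and a difference of -1.29 (SE 0.29, adjusted p = 0.141). Coq9, needed for ubiquinone synthesis, had 4688, 3221, 1981 and 2457 and 3792, 1755, 2381 and 2009 and a difference of -0.89 (SE 0.25, adjusted p = 0.261), also without overlap. Of the wider list of assembly factors 21 of 27 were below 0 (median -0.35), of the mitochondrial ribosome 67 of 74 (-0.25), of mitochondrial import 15 of 20 (-0.24) and of ATP and phosphate export 7 of 9 (-0.23). Among regulators 13 of 17 were below 0 with a median of -0.15. By array, over the 18 regulators measured, medians at days 3, 30 and 60 were -0.01, 0.08 and -0.20 in C57BL/6. In MRL/MpJ they were -0.15, -0.13 and -0.38. The coactivator Ppargc1a differed by -0.03 (SE 0.31, adjusted p = 0.981). Its signals were 807, 1312, 1072 and 777.5 in C57BL/6 and 858, 459, 737 and 775 in MRL/MpJ, opposite in direction between the strains at day 3. Nnt and Ucp3, from a further mitochondrial list, both lay below 0, at -0.32 and -0.40. Neither was lower on every array: Nnt read 4863 in C57BL/6 at day 3 against 3040 untreated. Ucp3 read 256.7 in MRL/MpJ at day 60 against 230.3 untreated. None of these lists had a called gene in the comparison of ligated with untreated hearts.

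Markers of the cell types of the ventricle were read beside the subunits. Of the 14 cardiomyocyte markers 5 were below 0 after ligation, the median was 0.10 and 0 were called. By array their median was below 0 on the MRL/MpJ day 3 (-0.08) and day 60 (-0.21) arrays, those with the lowest subunit medians, and between 0.12 and 0.51 on the other ligated arrays. Their summed signal was 234000 and 262500 in the untreated arrays and between 227000 and 415800 in ligated ones. On the MRL/MpJ day 3 array it was 265300, above the 262500 of untreated MRL/MpJ, and at MRL/MpJ day 60 it was 227000. The defining markers Myh6, Tnnt2 and Tnni3 were bright on every array. All 9 fibroblast markers were higher, with a median of 1.87, and 4 rose in the test (the collagen genes Col1a1, Col1a2 and Col3a1, and Fn1, with adjusted p between 0.0337 and 0.0351). Their summed signal was 9618 and 9881 untreated and 25390 to 59530 ligated, highest in the MRL/MpJ day 3 array, 1 of the arrays with the lowest complex I. At MRL/MpJ day 60, the other array of low complex I, it was 31340, near the 30500 of MRL/MpJ day 30. All 11 measured macrophage markers were above 0 with a median of 0.90 and 0 calls, and their summed signal was 5054 and 7598 untreated and 9714 to 13420 ligated. Of the 4 atrial markers 0 were called, and their direction differed between ligated arrays. Nppa, a natriuretic peptide gene that stressed ventricle also makes, had signals of 3455, 6605, 41060 and 18000 in C57BL/6 and 5781, 28350, 28880 and 26760 in MRL/MpJ, higher on every ligated array than on that strain's untreated array. The atrial light chain Myl7 had 442, 1078, 3372 and 11.9 in C57BL/6 and 532, 97.6, 3899 and 2967 in MRL/MpJ. Myl4 and Sln were likewise below the untreated array of the strain on the MRL/MpJ day 3 and C57BL/6 day 60 arrays and above it on the others. The median of the 4 markers was -1.83 on the MRL/MpJ day 3 array and -2.24 on the C57BL/6 day 60 array, and 1.32 to 3.36 on the other ligated arrays. Of 7 endothelial markers 5 lay below 0, with a median of -0.30 and 0 calls. In RNA of whole ventricle, fewer cells of a type and less RNA per cell cannot be told apart. The part of these cells in the lower subunit signals was not tested.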

How the data were processed

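The deposited values are microarray intensities on a linear scale for 22626 probe sets on 8 arrays. The submitters' processing notes name MAS5. The trimmed mean was 247.2 to 248.4 on every array. Detection calls were not used here. Genes were named by the platform table (20380 probe sets with 1 symbol, 691 with several, 1555 with none). Tests used limma 3.58.1 in R 4.3.3 on log2 values without further normalization: an additive model of strain and time point, and an added term for the MRL/MpJ array of a day (2 residual degrees of freedom). P-values measure the spread between these arrays, which may be technical. With 1 array in each group, the additive model takes this spread from the strain-by-time differences. A response that differs between the strains therefore counts as error. Members and lists were chosen with earlier results of these data known. Named are members called in any comparison, the 2 largest falls and rises of each complex, the 5 largest strain differences, isoform pairs and catalytic subunits. Others were named after their values were seen, by their lack of overlap or rank. The fits were tested on simulated data. Alternatives were offset, filter, normalization, probe sets, variance trend and each array left out. Promoter sequences are RefSeq's, build GRCm38.p6.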

Additional observations from a re-analysis of the deposited data

How the results depend on the processing

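The median over all members stayed below 0 for each day and for the 3 days together under every offset, filter, normalization and probe set choice tried. With 1 array left out it was -0.4263 to -0.0703 for the 3 days together, -0.4627 to -0.111 for day 3, -0.3509 to -0.0124 for day 30 and -0.4348 to -0.0709 for day 60. The count of members without overlap was 14 to 18 in these settings and 17 to 42 with 1 array left out. For the strain difference, 0 members were called with the offset at the 5th percentile, without the filter and with the mean of all probe sets, 2 with the variance trend, and 0 to 1 with 1 array left out. The 0 counts of the other comparisons did not move. Some single-gene differences after ligation changed sign. With quantile normalization these were Cox4i1 (-0.0736), Cox6a2 (-0.0355) and Cox7a2 (-0.0149), and with cyclic loess Atp5b (0.0142) and Cox7a2l (0.0199). With the mean of all probe sets they were Cox6b1 (-0.0208), Cox7a2 (-0.0281), Sdhaf2 (-0.0972), Uqcrb (-0.2664) and Uqcrq (0.1023). With 1 array left out the ranges were -0.1141 to 0.0049 for Atp5a1, -0.1104 to 0.0193 for Atp5b, -0.398 to 0.0484 for Atp5g2, -0.0713 to 0.3124 for Atp5g3 and -0.123 to 0.5726 for Atp5h. They were -0.2358 to 0.2521 for Cox4i1, -0.0362 to 0.1099 for Cox6a2, -0.1259 to 0.3476 for Cox6b1 and -0.1061 to 0.1477 for Cox7a2. For Sdhaf1 they were -0.1246 to 0.3971, for Sdhaf2 -0.0366 to 0.3162 and for Sdhc -0.4263 to 0.0518. The cause was not tested. Cyclic loess was chosen after seeing the data. The number of arrays, 1 in each group, limits the precision of every value.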

Other observations

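Probe sets that match several genes were not used for the members. Ndufb4, a complex I subunit, is read by a probe set shared with its copies Ndufb4b and Ndufb4c, with signals of 4752, 3721, 2036 and 3733 in C57BL/6 and 5323, 3112, 4488 and 2987 in MRL/MpJ and a mean log2 difference after ligation of -0.62. Its other probe set, also shared, gave 2336, 2345, 2029 and 2430.3 and 2840.5, 2078, 3085 and 2260.5, and -0.13. Ndufs6, read with Ndufs6b, showed 5148, 4215, 3472 and 4315 in C57BL/6 and 5113, 3273, 4442 and 3063 in MRL/MpJ, with each ligated array below both untreated arrays and a difference of -0.45. The probe set shared by Ndufs5 and its pseudogene gave 2495, 1840.5, 906 and 1945 and 2595, 1055, 2073 and 1743, and -0.73, where the single-symbol Ndufs5 probe set gave -0.37.

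Atp5k, a small subunit of ATP synthase, had 3 single-symbol probe sets that part on 1 array. In the MRL/MpJ day 3 array a dimmer one read 12715, the highest of its 8 values, while the brightest read 8843 and the third 2917, both below the untreated MRL/MpJ array.

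Dimmer probe sets of Uqcr10 and Ndufc2 separated the strains where the brightest did not. For Uqcr10, a dimmer probe set read 719.9, 419.5, 858 and 696 in C57BL/6 and 357, 364, 384 and 409 in MRL/MpJ, and the dimmest read 334, 234, 144 and 209 and 49.3, 99.7, 43.5 and 28. For Ndufc2, the dimmer probe set read 2439, 2280.2, 2157 and 3323 in C57BL/6 and 1832, 1323, 2045 and 1492 in MRL/MpJ. All 3 were lower in MRL/MpJ without overlap, and all were picked after their values were seen.

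Atpaf2, an assembly factor of ATP synthase, was measured at 200.4, 224, 18.5 and 62.2 in C57BL/6 and 227, 56.5, 18 and 119.8 in MRL/MpJ. Its fitted difference after ligation was -1.38 (adjusted p = 0.272), the largest of the assembly factors, on signals that lay partly under the offset.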
